A study of Bos taurus with 56 samples.

Results

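The genes described here are 5 genes of fat synthesis and fat cells, measured by RNA sequencing in the back muscle of beef cattle. They are fatty acid synthase (FASN, ENSBTAG00000015980), stearoyl-CoA desaturase (SCD, ENSBTAG00000045728), fatty acid binding protein 4 (FABP4, ENSBTAG00000037526), adiponectin (ADIPOQ, ENSBTAG00000019813) and lipoprotein lipase (LPL, ENSBTAG00000012855). They were taken by these Ensembl identifiers, 5 of the 20791 listed. The count tables hold no gene symbols and the cattle gene table used here paired 0 of the identifiers with a name, so the names rest on the list that chose the genes.

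Beef muscle holds fat cells between its fibre bundles, the marbling of the meat, beside the fibres that make up most of its RNA. Fat cells build fatty acids with FASN, desaturate them with SCD, carry them inside the cell on FABP4 and secrete the hormone ADIPOQ. LPL, which muscle fibres and fat cells both make, splits fat from blood lipoproteins at the capillary wall so that the tissue can take up the fatty acids. FABP4 and ADIPOQ are commonly used as markers of mature fat cells.

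The animals were Nguni bulls, a Sanga breed, and Bonsmara bulls, a Sanga-related breed. Each breed was fed in a feedlot for 120 days on a high energy diet (12.0 MJ of metabolizable energy per kg) or a low energy diet (10.9 MJ per kg), and RNA came from the Longissimus dorsi. The 42 libraries fall under 14 title stems of 3 libraries each (B6_1, B6_2 and B6_3 share the stem B6). Each stem was counted as 1 animal, although the labels say nothing on this. Should several stems come from 1 animal, the p-values would reflect no more than differences between samples, possibly technical ones. There were 3 Bonsmara stems on low energy (B11, B51, B126), 3 Bonsmara stems on high energy (B6, B25, B199), 3 Nguni stems on low energy (N33, N215, N1) and 5 Nguni stems on high energy (N35, N008, N11, N14, N37). The labels give no age, and the tissue was not checked against muscle markers because the identifiers carry no names. In bulk muscle, fewer cells of a type and less RNA per cell cannot be told apart.

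Libraries held 8156040 to 78224599 counts and stems 34456677 to 101757197, and 76.9% of the total of B6 came from B6_1. Levels are given in CPM, the counts of a gene relative to the library total after adjustment by trimmed mean of M-values (TMM), from the summed counts of a stem unless a library is named. They do not correct for transcript length, so levels of different genes are not compared. Libraries N008_3 and N215_2 were treated as outlying in the whole transcriptome, which was not measured here, and values are given without them where that matters. Diet follows the labels, although the deposited tables place N1 with the high energy Nguni and N11 with the low energy Nguni.

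FASN, the enzyme that builds palmitate from acetyl and malonyl units, was measured well in every library, with 72 to 1038 counts. The Bonsmara stems on low energy lay close together, at 16.5 CPM in B11, 16.5 in B51 and 15.9 in B126. The Bonsmara stems on high energy held 17.8 CPM in B6, 21.7 in B25 and 41.97 in B199. With all libraries, all 3 were above all 3 on low energy, B199 by far the most. Without libraries B6_2 and N215_2, B6 fell to 13.91 CPM, below the low energy stems of its breed. The Nguni stems on low energy held 24.6 CPM in N33, 17.2 in N215 and 14.8 in N1. The Nguni stems on high energy held 8.14 CPM in N35, 10.2 in N008, 12.8 in N11, 8.26 in N14 and 15.7 in N37. The Nguni on high energy thus held the 4 lowest FASN levels of the 14 stems, while N37 lay above N1. Of these 4, N11 stands with the low energy Nguni in the deposited tables. Without N008_3 and N215_2, N215 fell to 9.88 CPM, below N008 at 12.45 and N11 at 12.66.

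SCD, which places the double bond that turns stearic into oleic acid, was close to the limit of detection, with 9 to 39 counts per stem and 0 counts in 2 libraries, B6_3 and N37_1. The Bonsmara stems on low energy held 0.481 CPM in B11, 0.256 in B51 and 0.386 in B126. Those on high energy held 0.141 CPM in B6, 0.297 in B25 and 0.316 in B199. The 6 Bonsmara stems therefore stayed under 0.5 CPM. The Nguni stems on low energy held 1.26 CPM in N33, 0.616 in N215 and 0.439 in N1. Those on high energy held 0.707 CPM in N35, 0.711 in N008, 0.475 in N11, 0.257 in N14 and 0.247 in N37. The 4 highest SCD levels were in the Nguni stems N33, N008, N35 and N215, with N33 above 1 CPM in each of its libraries (1.29, 1.32 and 1.05 CPM). In N008, 1 of the libraries set apart above, N008_3, held 1.14 CPM against 0.330 and 0.340 in its partners. In N215, N215_2 held 1.55 CPM against 0.409 and 0.192, and 67.7% of the SCD counts. Without these libraries N008 and N215 were no longer among the 4 highest, and B11 was, at 0.454 CPM.

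FABP4, the fatty acid carrier of the fat cell, split the stems into 4 that lay above 5 CPM and 10 that lay under 3 CPM, and each of the 4 groups held 1 of the high stems. The Bonsmara stems on low energy held 1.31 CPM in B11, 2.00 in B51 and 7.09 in B126. Those on high energy held 7.65 CPM in B6, 2.3 in B25 and 2.90 in B199. On low energy, Nguni stems held 1.12 CPM in N33, 5.29 in N215 and 1.36 in N1. On high energy, Nguni stems held 0.835 CPM in N35, 0.820 in N008, 1.20 in N11, 1.03 in N14 and 5.20 in N37. Every group therefore overlapped every other for FABP4.

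ADIPOQ, the hormone that fat cells release into the blood, was again highest in B6, N215, B126 and N37. B25 at 2.74 CPM lay next to N37 at 2.75, so these stems were not set apart as for FABP4. The Bonsmara stems on low energy held 1.28 CPM in B11, 1.60 in B51 and 3.64 in B126. On high energy the values were 4.69 CPM in B6, 2.74 in B25 and 1.35 in B199. B199, the stem with the most FASN, was thus the lowest of its group for ADIPOQ. The Nguni stems on low energy held 0.385 CPM in N33, 4.69 in N215 and 0.694 in N1. On high energy the values were 0.685 CPM in N35, 0.365 in N008, 1.27 in N11, 0.963 in N14 and 2.75 in N37. All 6 Bonsmara stems were above 1.2 CPM, while 5 of the 8 Nguni stems were under 1 CPM.

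LPL, the lipase at the capillary wall, varied least between stems, with 2.60-fold between the highest and the lowest against 5.16-fold for FASN, 8.92-fold for SCD, 9.32-fold for FABP4 and 12.9-fold for ADIPOQ. The Bonsmara stems on low energy held 63.3 CPM in B11, 82.0 in B51 and 74.1 in B126. Those on high energy held both extremes, with 61.0 CPM in B6, 35.6 in B25 and 92.5 in B199. The Nguni stems on low energy held 65.1 CPM in N33, 75.8 in N215 and 77.95 in N1. Those on high energy held 74.2 CPM in N35, 50.7 in N008, 63.6 in N11, 64.4 in N14 and 52.3 in N37. LPL showed no group apart from the others.

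**Figure D1:**
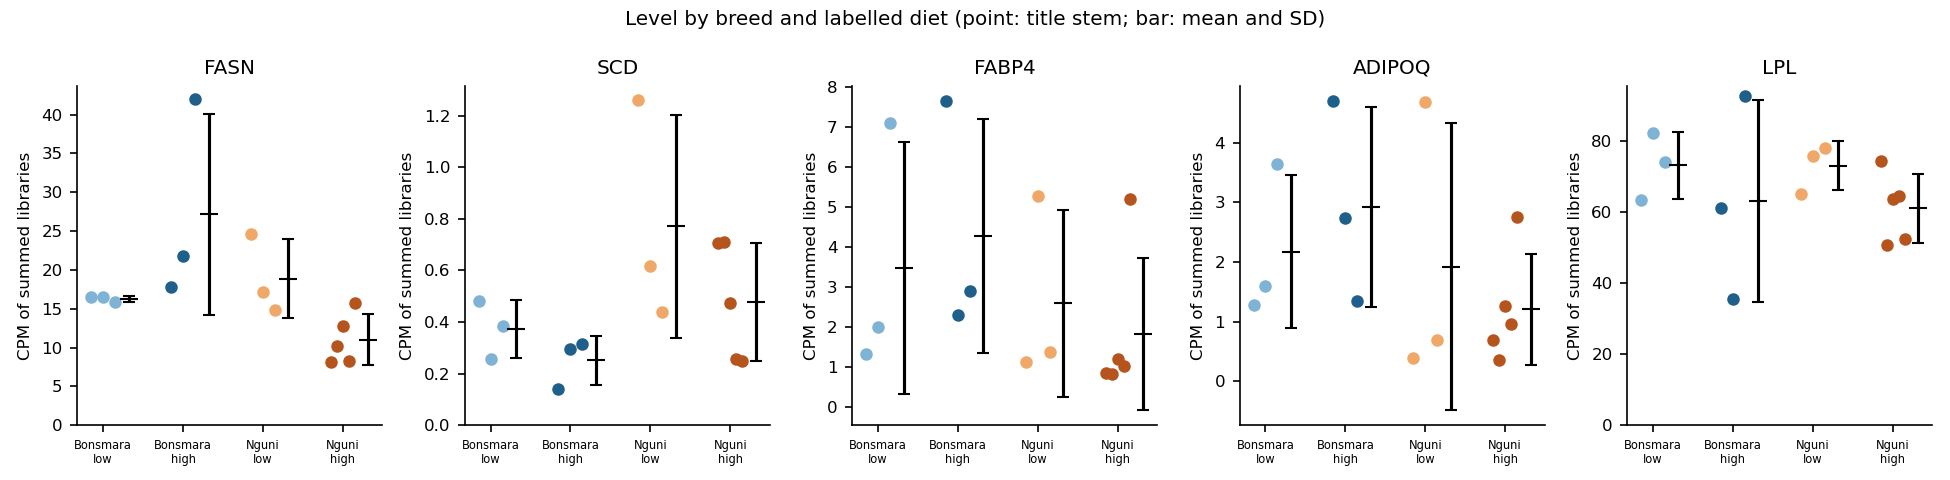
Level of each gene in CPM (linear axis) in the 14 stems by breed and labelled diet, each point a stem and each bar the mean with its SD (n = 3, 3, 3 and 5). In these values FASN on high energy separates the breeds, 17.8 CPM or more in Bonsmara and 15.7 or less in Nguni. Without libraries B6_2 and N215_2 the breeds overlap (13.91 CPM in B6, 15.15 in N37). FABP4 has 1 stem above 5 CPM in each group.

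The level of a stem could rest on 1 of its libraries. The ratio of the highest to the lowest library of a stem had a median of 1.54 for FASN and 1.44 for LPL, against 3.28 for FABP4 over the 13 stems with no library at 0, 2.69 for ADIPOQ over 13 stems and 4.04 for SCD over 12. In B6, FABP4 was 38.3 CPM in B6_2 and 2.02 and 1.16 in its partners, so that B6_2 supplied 77.5% of the FABP4 counts of the stem with 12.5% of its total. In N215, FABP4 was 17.6 CPM in N215_2 and 0.750 and 0.769 in its partners, and N215_2 supplied 89.9% of the FABP4 counts. Of the 4 stems high in FABP4, B6 and N215 were so in a single library each.

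The same 2 libraries led for ADIPOQ and were above their partners for FASN and SCD. ADIPOQ was 17.6 CPM in B6_2, with 2.36 and 0.828 in its partners, and 15.6 CPM in N215_2, with 0.681 and 0.721. FASN was 37.95 CPM in B6_2, with 13.7 and 11.9, and 38.2 CPM in N215_2, with 9.34 and 10.1. SCD was 0.456 CPM in B6_2, from 6 counts, with 0.0870 and 0 in its partners. LPL did not share this, at 45.7 CPM in B6_2 with 58.3 and 94.2 in its partners, and 67.2 CPM in N215_2 with 85.2 and 79.5. B199 differed from B6 and N215, since its FASN was 41.7, 45.7 and 33.4 CPM in its 3 libraries while its FABP4 was 1.55, 4.14 and 1.84.

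**Figure D2:**
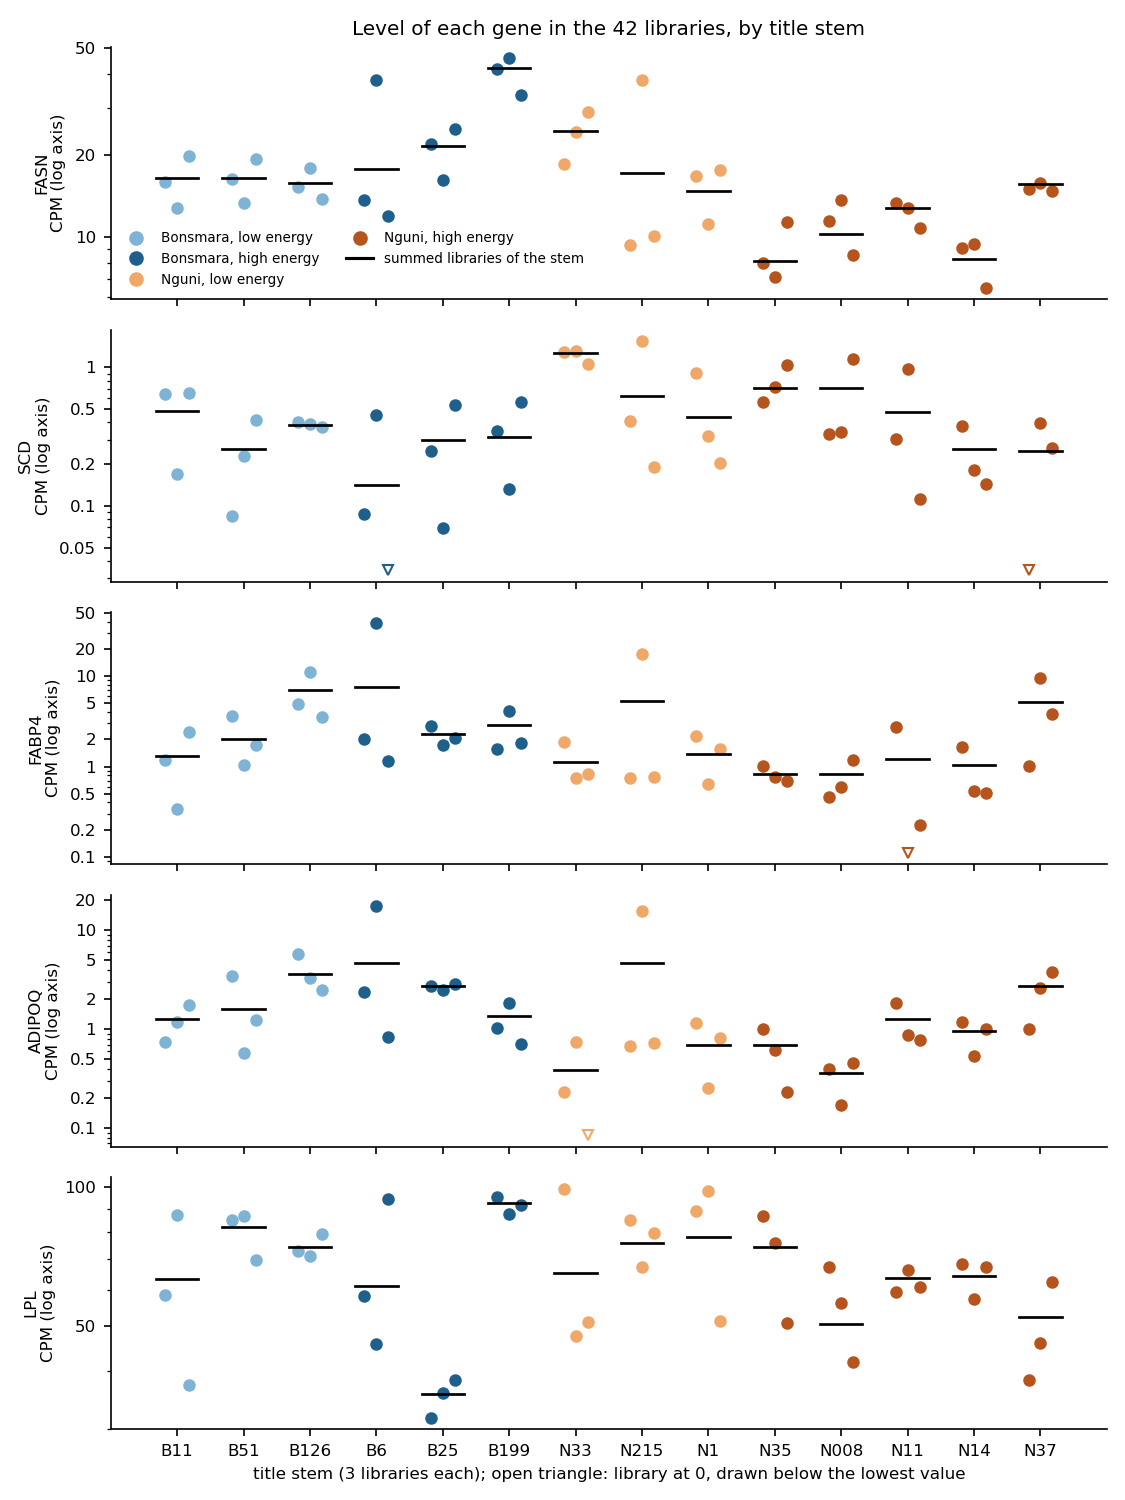
Level of each gene in CPM (log axis) in all 42 libraries, 3 per stem on the horizontal axis, with black lines for the summed libraries of a stem and open triangles for libraries at 0. B6_2 and N215_2 stand above their partners for FABP4, ADIPOQ, FASN and SCD and not for LPL, and FASN is high in all 3 libraries of B199.

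FABP4 and ADIPOQ also varied more between libraries of a stem than genes of like level. The within-stem SD of log2 CPM was 1.47 for FABP4, above that of 99.5% of the 2945 genes within 1 log2 unit of its mean level. For ADIPOQ it was 1.23, above 97.0% of 2718 such genes. FASN had an SD of 0.468, above 87.4% of 3479 genes, LPL 0.356, above 78.7% of 1384, and SCD 0.993, above 64.9% of 2137. The intraclass correlation, the share of the variance of libraries that lay between stems, was 0.543 for FASN, 0.383 for LPL, 0.356 for ADIPOQ, 0.206 for SCD and 0.188 for FABP4, against a median of 0.431 over all genes tested. The share of variance between stems was thus highest for FASN and lowest for FABP4.

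**Figure D3:**
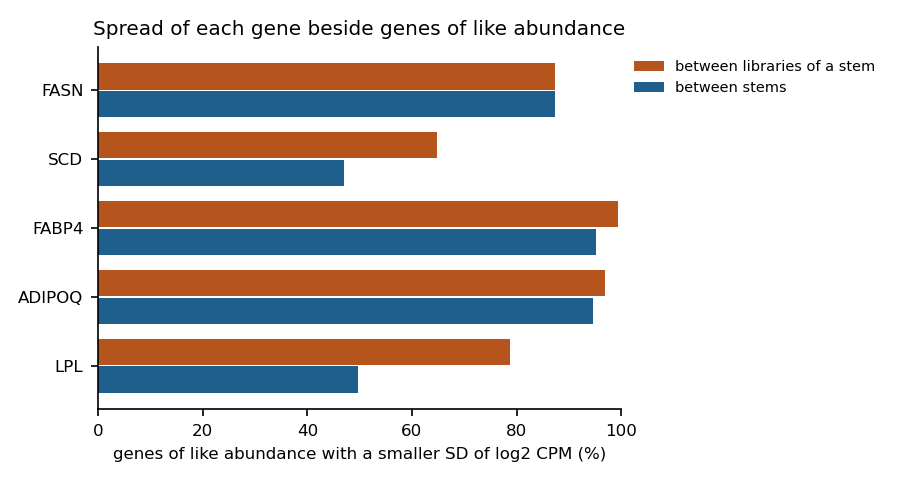
Share of genes of like abundance (within 1 log2 unit of the gene's mean level) that had a smaller SD of log2 CPM than each of the 5 genes, in percent, between libraries of a stem and between stems. FABP4 and ADIPOQ exceed over 94% of such genes on both measures, while LPL and SCD lie near the middle between stems.

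The effect of the diet was then compared within each breed. Of the 13219 genes that passed the low-count filter, all 5 described here among them, edgeR's quasi-likelihood test called 0.0% in Bonsmara at an adjusted p under 0.05, and none of the 5 was called. FASN was 27.2 ± 12.97 CPM (SD, n = 3) on high and 16.3 ± 0.4 (n = 3) on low energy in Bonsmara, which gave a log2 difference of 0.74 (SE 0.33, adjusted p = 0.888 by edgeR). The unadjusted p was 0.0435. FASN was the only 1 of the 5 genes whose diet groups did not overlap in Bonsmara, which in either direction held for 17.8% of all genes, and the only 1 with an unadjusted p under 0.05, which 3.84% of all genes had. Without B199 the log2 fold change of FASN was 0.28. Without libraries B6_2 and N215_2, B6 held 13.91 CPM, below the 15.69 to 16.61 of the low energy stems. Without the TMM adjustment it held 14.87 CPM, below their 14.95 to 19.24. In neither setting did FASN have an unadjusted edgeR p under 0.05. Nor did it with diet as in the deposited tables, without N008_3 and N215_2, or on leaving out B11, B51 or B126. With libraries as samples and the stem as a random block, limma voom gave FASN no such p either.

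For the other 4 genes the diet groups overlapped in Bonsmara. The log2 fold change of high against low energy was -0.58 (SE 0.58) for SCD, 0.30 (SE 0.84) for FABP4, 0.43 (SE 0.84) for ADIPOQ and -0.21 (SE 0.28) for LPL, with adjusted p by edgeR of 0.891 to 0.957. The median over the 5 genes was 0.30, beside 0.01 over all genes tested. FABP4 and ADIPOQ turned to -0.55 and -0.04 without libraries B6_2 and N215_2. Without these libraries the median over the 5 genes turned to -0.19. LPL turned to 0.07 without B25, and SCD was at -0.28 without B6.

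In Nguni, the values of all 5 genes were lower on high than on low energy, and none passed the test, as for 0.0% of all genes. FASN was 11.03 ± 3.2 CPM (SD, n = 5) on high and 18.9 ± 5.1 (n = 3) on low energy, or -0.77 on the log2 scale (SE 0.29, adjusted p = 0.9999 by edgeR). The unadjusted p was 0.0191. The log2 fold change was -0.66 (SE 0.50) for SCD, -0.53 (SE 0.76) for FABP4, -0.70 (SE 0.75) for ADIPOQ and -0.26 (SE 0.25) for LPL. Without N33 that of SCD was -0.12. None of the 5 genes had diet groups without overlap in Nguni, beside 1.84% of all genes, and FASN alone had an unadjusted p under 0.05, beside 3.03%. Their median log2 fold change was -0.66, beside 0.00 over all genes, and -0.26 without N008_3 and N215_2. Without N008_3 and N215_2 the log2 fold change of FASN in Nguni was -0.52. Over all alternatives, diet as in the deposited tables among them, it was -0.94 to -0.52. The sign of FABP4 and ADIPOQ rested on N215_2, since without B6_2 and N215_2 they were 0.71 and 0.97.

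FASN therefore had a higher value on high energy in Bonsmara and a lower value in Nguni. The difference of the diet effect between the breeds, Nguni minus Bonsmara, was a log2 of -1.51 for FASN (SE 0.44, edgeR p = 0.00418, adjusted p = 0.855), 1 of the 25 smallest p-values of the 13219. It did not pass the adjusted threshold, as for 0.0% of all genes, and 4.18% of all genes had an unadjusted p under 0.05. Without B199 the difference was -1.06, and without N008_3 and N215_2 it was -1.26. Over all alternatives, diet as in the deposited tables among them, it was -1.73 to -1.06. Averaged over the breeds, SCD had the lower value on high energy, at -0.62 on the log2 scale (SE 0.38, adjusted p = 0.999 by edgeR), and -0.35 without N33. In that comparison 0.0% of all genes were called and 3.28% had an unadjusted p under 0.05, none of the 5 genes among them.

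Between the breeds on the high energy diet, FASN had the smallest p of the 5 genes. FASN was 11.03 ± 3.2 CPM (SD, n = 5) in Nguni and 27.2 ± 12.97 (n = 3) in Bonsmara, or -1.30 on the log2 scale (SE 0.29, adjusted p = 0.501 by edgeR). Its unadjusted p of 0.000493 was the 13th smallest of the 13219 genes, of which edgeR called 0.0% and 8.73% had an unadjusted p under 0.05. With all libraries and the TMM adjustment, all 5 Nguni stems were below all 3 Bonsmara stems. Groups without overlap, in either direction, were seen in 1 of the 5 genes and in 6.0% of all genes. DESeq2 called FASN on the same stem sums, with a log2 fold change of -1.29 and an adjusted p of 0.0321, among 0.204% of all genes. It called none of the 5 genes elsewhere, beside 0.0151% of all genes for diet in Bonsmara, 0.00756% each for diet in Nguni, for breed on low energy and for the diet over both breeds, and 0.106% for the breed over both diets. With libraries as samples and the stem as a random block, limma voom gave -1.30 with an adjusted p of 0.0662. Without B199 the edgeR log2 fold change was -0.85 (adjusted p = 0.573), and without N008_3 and N215_2 it was -1.24. The breeds overlapped for FASN without libraries B6_2 and N215_2, with 13.91 CPM in B6 and 15.15 in N37. They also overlapped without the TMM adjustment, with 14.87 CPM in B6 and 16.42 in N37.

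The fat cell genes had lower values and SCD a higher value in Nguni on high energy, and none passed the test. FABP4 was 1.82 ± 1.90 CPM (SD, n = 5) in Nguni and 4.28 ± 2.93 (n = 3) in Bonsmara, or -1.25 on the log2 scale (SE 0.74, adjusted p = 0.572 by edgeR). Without libraries B6_2 and N215_2 the FABP4 difference was -0.42, with a Bonsmara mean of 2.37 CPM. It was -0.53 without B6 and -2.15 without N37. ADIPOQ was 1.21 ± 0.93 CPM (n = 5) against 2.93 ± 1.68 (n = 3), or -1.29 on the log2 scale (SE 0.74, adjusted p = 0.568 by edgeR), and -0.83 without B6_2 and N215_2. SCD was 0.479 ± 0.228 CPM (n = 5) against 0.251 ± 0.096 (n = 3), or 0.95 on the log2 scale (SE 0.53, adjusted p = 0.566 by edgeR). LPL was 61.0 ± 9.7 CPM (n = 5) against 63.0 ± 28.5 (n = 3). The median log2 fold change of the 5 genes was -1.25, beside 0.03 over all genes, and -0.42 without B6_2 and N215_2.

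On the low energy diet none of the 5 genes was called, as for 0.0% of all genes, and none had breed groups without overlap, which 9.0% of all genes had. With all libraries none had an unadjusted edgeR p under 0.05, beside 3.62% of all genes. Without N215, 1 of the 5 genes did, beside 1045 of 13443 genes. Without N008_3 and N215_2, 1 did, beside 669 of 12949 genes. Without B6_2 and N215_2, 2 did, beside 563 of 13077 genes. FASN was 18.9 ± 5.1 CPM (SD, n = 3) in Nguni and 16.3 ± 0.4 (n = 3) in Bonsmara, or 0.21 on the log2 scale (SE 0.33), and -0.03 without N33. SCD was 0.771 ± 0.431 CPM (n = 3) against 0.374 ± 0.113 (n = 3), or 1.03 on the log2 scale (SE 0.57, adjusted p = 0.956 by edgeR), and 0.50 without N33. FABP4 had a log2 fold change of -0.42 and ADIPOQ of -0.17, and without N215 these were -1.492 and -1.999.

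Averaged over the diets, SCD had a higher value in Nguni, with a log2 fold change of 0.99 (SE 0.39, edgeR p = 0.0229, adjusted p = 0.569), and FASN a lower one, at -0.54 (SE 0.22, edgeR p = 0.0276, adjusted p = 0.569). These were the 2 of the 5 genes with an unadjusted p under 0.05, beside 8.65% of all genes, and edgeR called 0.0% at the adjusted threshold. FABP4 and ADIPOQ were at -0.83 and -0.73 with all libraries. Without N008_3 and N215_2 the genes with an unadjusted edgeR p under 0.05 were FASN at -0.61 (p = 0.0246), FABP4 at -1.48 (p = 0.0116) and ADIPOQ at -1.57 (p = 0.0023), with adjusted p of 0.479 to 0.497, while SCD was at 0.77 (p = 0.072). FASN was at -0.32 without B199, and FABP4 and ADIPOQ were at -0.30 and -0.44 without B126. Of the variance of log2 CPM between stems, the 4 groups held 63.6% for FASN, more than for 98.5% of all genes, 44.5% for SCD, 25.6% for FABP4, 25% for ADIPOQ and 18.1% for LPL, beside a median of 21.6% over all genes.

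**Figure D4:**
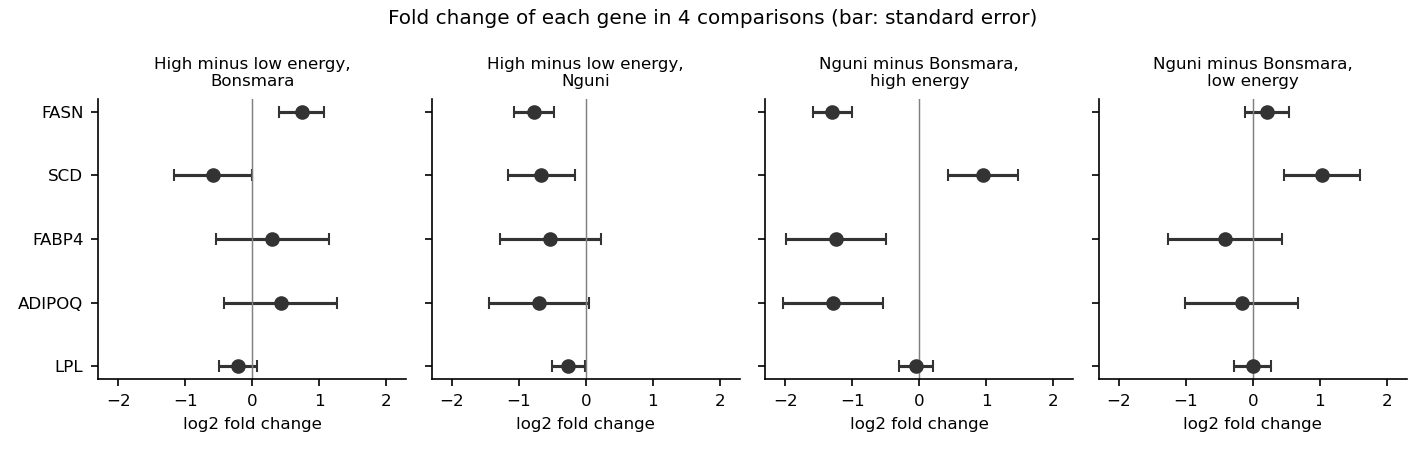
Log2 fold change of each gene with its standard error in 4 comparisons from 1 edgeR fit over 14 stems, where a value above 0 is higher on high energy (left pair) or in Nguni (right pair). FASN lies at 0.74 and -0.77 for the diet in Bonsmara and Nguni, and SCD lies at 0.95 and 1.03 for the breed on both diets, with no gene past the adjusted threshold.

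The 5 genes were then compared with each other over the stems, on log2 CPM and over all 10 pairs. FABP4 and ADIPOQ varied together, with Pearson's r = 0.896 (permutation p = 5e-05, adjusted p = 0.0005) and Spearman's rho = 0.938 (permutation p = 3e-05, adjusted p = 0.0003) over 14 stems. This was the only 1 of the 10 pairs called at an adjusted p under 0.05. Of the 13218 other genes tested, ADIPOQ had the highest r with FABP4, and FABP4 the highest with ADIPOQ. The ratio of FABP4 to ADIPOQ CPM ranged from 0.841 in B25 to 2.91 in N33.

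The relation between FABP4 and ADIPOQ stayed positive in each subset examined. It was r = 0.857 without B6 and B126, the stems farthest from the median of FABP4, 0.831 without libraries B6_2 and N215_2, and 0.901 without N008_3 and N215_2. It was r = 0.894 over the 8 Nguni stems (exact permutation p = 0.00722, adjusted p = 0.0722) and 0.857 over the 6 Bonsmara stems (exact permutation p = 0.0347, adjusted p = 0.347). After the mean of each breed and diet group was removed it was 0.875 (permutation test, adjusted p = 0.0054). Since 4 stems lay above the rest for FABP4, it was also computed over the 10 stems under 5 CPM, where r was 0.738 (permutation p = 0.0149) and rho 0.842.

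**Figure D5:**
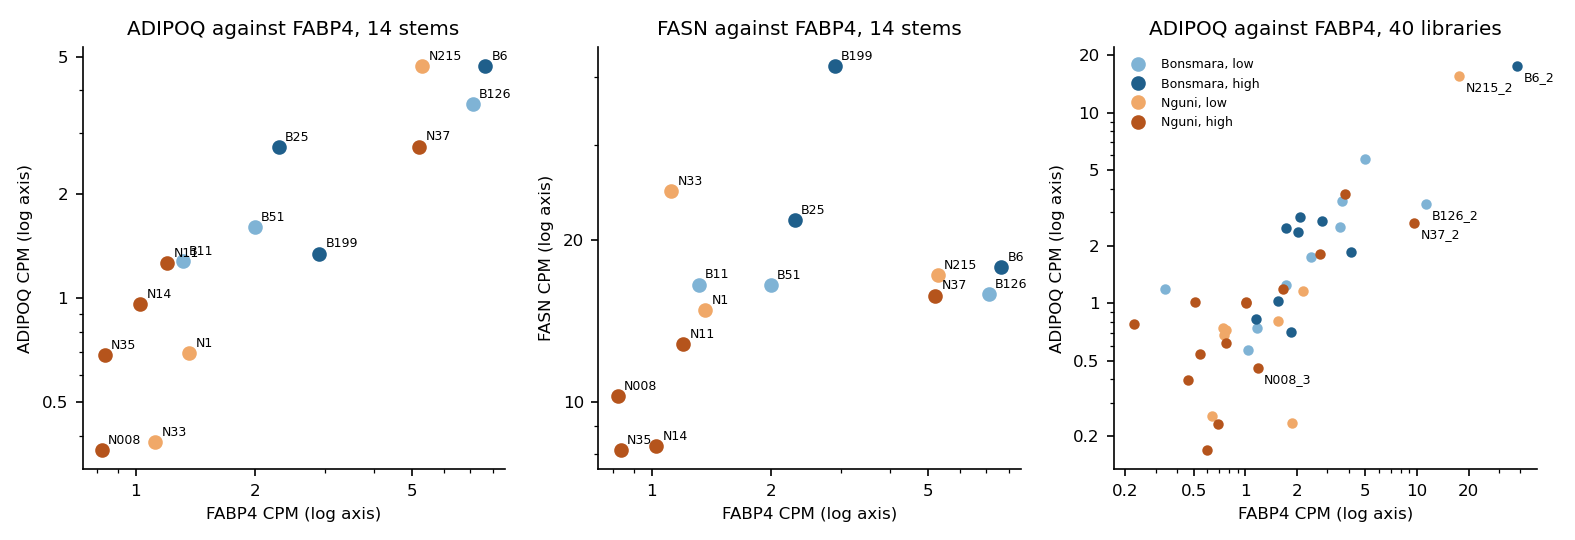
ADIPOQ against FABP4 and FASN against FABP4 in the 14 stems, and ADIPOQ against FABP4 in the 40 libraries with counts of both genes, all in CPM on log axes and coloured by breed and diet. ADIPOQ follows FABP4 over stems (r = 0.896), B199 and N33 are high in FASN at low or middle FABP4, and B6_2 and N215_2 lie at the top right.

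SCD, the desaturase, had a negative r with FABP4 and ADIPOQ over stems. With ADIPOQ its r was -0.635 (permutation p = 0.0141, adjusted p = 0.0705) and its rho -0.644 (permutation p = 0.0152, adjusted p = 0.0759). With FABP4 its r was -0.546 (permutation p = 0.0417, adjusted p = 0.139) and its rho -0.587 (permutation p = 0.0299, adjusted p = 0.0979). Neither passed with all stems. Without N33 and B6, the stems farthest from the median of SCD, r was weaker. It was -0.368 with ADIPOQ (permutation p = 0.236) and -0.349 with FABP4 (permutation p = 0.263). On leaving out 1 of them, r with ADIPOQ was -0.541 (without B6) and -0.517 (without N33). SCD and ADIPOQ passed without libraries B6_2 and N215_2 (r = -0.685, permutation test, adjusted p = 0.0292) and without N14 (r = -0.692, permutation test, adjusted p = 0.0446). Without N215 both passed, at r = -0.81 for ADIPOQ (permutation test, adjusted p = 0.00405) and -0.67 for FABP4 (permutation test, adjusted p = 0.0395). B6 had the highest FABP4 and the lowest SCD, and N33 the highest SCD with the second lowest ADIPOQ. SCD counts were low, and the part of counting error in this relation was not tested.

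FASN, the other enzyme of fat synthesis, had no correlation with the fat cell markers that passed the threshold over all 14 stems. Its r was 0.427 with FABP4 (permutation p = 0.129, adjusted p = 0.323; rho 0.56, adjusted p = 0.0979) and 0.259 with ADIPOQ (permutation p = 0.378, adjusted p = 0.756). Its r was 0.142 with LPL (permutation p = 0.619, adjusted p = 0.862). Its rho with FABP4 passed without B6_2 and N215_2 (0.701, permutation test, adjusted p = 0.0325). Without N33 its rho was 0.72 with FABP4 and 0.703 with ADIPOQ (permutation test, adjusted p = 0.0306 for both). Ranked among the 13218 other genes by r with FASN, FABP4 was 1746th and ADIPOQ 3463rd.

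Within stems the picture differed. The following r were taken over the 42 libraries as deviations from the mean of their stem, as a description, since libraries of a stem share their source and differ in depth. FABP4 and ADIPOQ had r = 0.725, FASN and FABP4 0.664, FASN and ADIPOQ 0.605, FASN and SCD 0.516, and SCD and FABP4 0.467. Without B6_2 and N215_2 these were 0.483, 0.272, 0.044, 0.21 and 0.199. All were lower without those libraries. FABP4 and ADIPOQ stayed the highest of them, and FASN and ADIPOQ became the lowest. SCD and FABP4, with a negative r between stems, thus had a positive r within stems. FASN and LPL had r = -0.516 within stems, and -0.526 without the same libraries.

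Outside the 5 genes, those with the most similar pattern over the 14 stems are given by identifier, as the tables do not name them. For FASN they were ENSBTAG00000012774 (r = 0.912) and ENSBTAG00000015505 (r = 0.901), both also highest in B199, at 14.2 and 31.5 CPM. For ADIPOQ they were ENSBTAG00000019379 (r = 0.887), highest in N215, and ENSBTAG00000018002 (r = 0.883), highest in B6. For FABP4 they were ENSBTAG00000021059 (r = 0.873) and ENSBTAG00000012409 (r = 0.812). For SCD they were ENSBTAG00000019059 (r = 0.882) and ENSBTAG00000018088 (r = 0.823), both highest in N008. For LPL they were ENSBTAG00000005565 (r = 0.873) and ENSBTAG00000013545 (r = 0.859). These are the highest of 13218 values for each gene and are given with no test.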

How the data were processed

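Per the submitters' processing notes, the tools were Salmon, DESeq2, FastQC and Trimmomatic (versions and roles are not stated). Build, annotation and strandedness: not given in the sources used here. In 4 tables, the authors deposited gene-level estimated counts (expected counts). All values were whole numbers, so rounding changed 0 of them. Each of the 42 libraries stood in 2 tables with identical columns and was taken once, and 14 of the 56 labelled samples were not analysed here. The 3 libraries of a stem were summed. Genes were filtered with edgeR's filterByExpr (minimum count 10) and scaled by TMM, and group means over the 14 stems were fitted once by robust quasi-likelihood in edgeR 4.0.16 under R 4.3.3, with 10 residual degrees of freedom. All tests were two-sided, and p-values were adjusted by Benjamini-Hochberg over the genes tested in each fit. These were 13219 in the main fit, 11340 with the stem as a random block and 13692 without B199. Correlations used log2 CPM with a prior count of 1 and 100000 permutations (exact under 10 stems), adjusted over 10 pairs. The edgeR fit and the exact permutation test were checked on simulated data, and the other tests were not. In the 4 comparisons of a pair of groups, edgeR called 5 to 10 of 100 genes simulated with a 2-fold change. It called 52 to 64 of 100 with a 4-fold change. For the difference of the diet effect these were 0 and 22 of 100, so a gene not called can still differ. DESeq2 1.42.0 and limma 3.58.1 served as alternatives. The 5 genes, and the gene lists, were chosen with earlier results of these data known. The rule for named genes took the 5 genes and, for each, the 2 outside them with the highest r. Lists of lipid pathways and cell type markers were given by symbol and could not be tested, because 0 identifiers matched the 37063 genes of the reference. Their part in the results was not tested.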

Additional observations from a re-analysis of the deposited data

Results flagged for a closer look

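FABP4 in the stem N37 lay far above the other Nguni stems on high energy, at 5.20 CPM against 0.820 to 1.20 in the other 4. The gap to the nearest stem was 0.913 of the range of the group, above the critical value of 0.71 in Dixon's test. Of the 5 genes, FABP4 alone passed it in this group, which was the only group with enough stems for the test. Chance alone passes about 1 test in 20 where values are normally distributed, which was not checked for these CPM. All 5 genes were tried, so a pass by at least 1 of them is likelier than that. ADIPOQ was also highest in N37, at 2.75 CPM, with a gap of 0.622 of the range. The FABP4 of N37 was 1.01, 9.64 and 3.82 CPM in its 3 libraries, and ADIPOQ was 1.01, 2.63 and 3.76. Without N37 the log2 fold change of FABP4 between the breeds on high energy was -2.15 in place of -1.25, while it was -0.42 without libraries B6_2 and N215_2 and -0.53 without B6.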

How the results depend on the processing

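No paired analysis was possible because title suffixes number the libraries within a stem and stems carry no number shared across groups. Limits: SCD rested on 9 to 39 counts per stem, FABP4 and ADIPOQ on single libraries in B6 and N215, and FASN on B199. The FASN groups that did not overlap in the main values did so without B6_2 and N215_2 and with plain CPM. The cause of the changes below was not tested. None of the 5 genes was called in the alternatives run, except that DESeq2 called 1 (FASN) for breed on high energy. Fitting only the groups compared was run for the 4 comparisons of a pair of groups. Over all genes edgeR called 0 in the main fit. Without N37 it called 1 for breed on high energy and 1 for breed averaged, neither of them among the 5 genes. DESeq2 called 2 (diet in Bonsmara), 1 (diet in Nguni), 27 (breed on high energy), 1 (breed on low energy), 0 (difference), 1 (diet averaged) and 14 (breed averaged). Voom with quality weights called 2 for breed averaged, and the library block 44, 1 and 16 for breed on high energy, on low energy and averaged. SCD did not enter the library block, where 4 of the 5 genes were tested. Plain CPM moved the median log2 fold change of all genes to -0.20 for diet in Bonsmara, 0.15 for breed on high energy and 0.21 for the difference. It also moved the mean FASN of Bonsmara on low energy to 17.5 CPM.

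Of the fold changes printed, 11 of those on leaving out a stem and 11 of those under other alternatives reversed sign, while 325 and 240 kept sign and side of the threshold. For diet in Bonsmara, ADIPOQ was -0.0446 without B6_2 and N215_2 (an alternative chosen after seeing the data) and -0.12 to 1.02 on leaving out a stem. FABP4 was -0.0155 by voom, -0.0122 with plain CPM, -0.55 without B6_2 and N215_2, and -0.44 to 1.37 on leaving out a stem. LPL ranged from -0.593 to 0.0706. For diet in Nguni, ADIPOQ was 0.20 by voom, 0.96 without N008_3 and N215_2, 0.97 without B6_2 and N215_2, 0.43 with the library block, and -1.25 to 1.12 on leaving out a stem. FABP4 was 0.67, 0.71 and -1.43 to 0.52 without N008_3 and N215_2, without B6_2 and N215_2, and on leaving out a stem. For breed on low energy, FASN was -0.0269 by voom and -0.0294 to 0.352 on leaving out a stem, ADIPOQ -1.999 to 0.42 and FABP4 -1.49 to 0.64.

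Of the 10 pairs, 1 was called with all stems, 2 without B6_2 and N215_2, 0 over Nguni stems, 0 over Bonsmara stems and 1 to 3 on leaving out a stem (3 without N215, 2 without N14). The r of FASN and FABP4 was -0.093 over Bonsmara stems. That of FASN and ADIPOQ was -0.379 over Bonsmara stems and -0.117 after removing group means. That of FASN and LPL was -0.007 without N008_3 and N215_2, -0.108 without B199 and N35, and -0.202 to 0.439 on leaving out a stem.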
